A study of Mus musculus with 6 samples.

Results

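Complement is a cascade of plasma and membrane proteins that tags microbes, debris and synapses for removal, and several of its genes are read in cells of the brain's coverings. The 9 complement genes C1qa, C1qb, C1qc, C3, C4b, Cfb, Serping1, C3ar1 and C5ar1 were taken by symbol from the 31053 genes of the deposited single-cell count tables, and all 9 were found. They were described in fibroblast, mural and myeloid cells of both preparations. The data came from 6 single-cell libraries of adult C57BL6 mice of either sex, each library from tissue pooled from several mice. Of these, 4 were of cortical surface-associated tissue, which held the leptomeninges together with microglia, choroid plexus and other brain cells. The other 2 were of bone-associated tissue, the meningeal tissue such as dura dissected off the inside of the skull. No group carried a transgene, a deletion or a treatment, and animals were not perfused, so blood cells were part of each preparation. Replicates here are libraries, and since individual mice within a pool cannot be told apart, p-values measure the spread between libraries. The sample labels give a papain dissociation written for another brain region, whereas the methods of the study give collagenase and dispase, so the enzyme used cannot be stated with certainty.

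C1q, made of A, B and C chains, opens the classical pathway by binding antibody, apoptotic cells or synapses and activating the proteases C1r and C1s, which cleave C4 and C2 into an enzyme that acts on C3. C3 is the central component on which the classical, lectin and alternative routes meet, factor B (Cfb) is the protease of the alternative route that amplifies C3 cleavage, and C1 inhibitor (Serping1) blocks C1r and C1s. Fragments released from C3 and C5 signal through the G protein-coupled receptors C3ar1 and C5ar1, and in the brain microglia are the well-known source of C1q.

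The 9 genes lie on 5 chromosomes of the mouse build GRCm38, all on the minus strand (GENCODE M21 gene models). The C1q chains form a cluster on chromosome 4, with C1qb (ENSMUSG00000036905) at 136880129 to 136886187, C1qc (ENSMUSG00000036896) at 136889804 to 136893065 and C1qa (ENSMUSG00000036887) at 136895917 to 136898803, 18675 bases from end to end. Chromosome 17 holds C4b (ENSMUSG00000073418, 34728380 to 34743882), Cfb (ENSMUSG00000090231, 34856374 to 34862518) and C3 (ENSMUSG00000024164, 57203970 to 57228136). Serping1 (ENSMUSG00000023224) is on chromosome 2 at 84765387 to 84775444, C3ar1 (ENSMUSG00000040552) on chromosome 6 at 122847138 to 122856161, and C5ar1 (ENSMUSG00000049130) on chromosome 7 at 16246743 to 16259540. C4a, a near-identical copy of C4b, is in the annotation but had no row in the tables, so C4b counts are uncertain where reads could belong to either copy.

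The 250 bases upstream of the RefSeq start (GRCm38.p6, minus strand, printed 5′ to 3′) were available for 5 of the 9 genes and are shown for the 4 read mainly in myeloid cells other than C3, because these genes are described side by side here. Capitals mark AGGAAG, the core bound by Ets factors such as PU.1, on either strand (CTTCCT on the other), or TGANTCA, the AP-1 core.
C1qb, chr4:136886201-136886450: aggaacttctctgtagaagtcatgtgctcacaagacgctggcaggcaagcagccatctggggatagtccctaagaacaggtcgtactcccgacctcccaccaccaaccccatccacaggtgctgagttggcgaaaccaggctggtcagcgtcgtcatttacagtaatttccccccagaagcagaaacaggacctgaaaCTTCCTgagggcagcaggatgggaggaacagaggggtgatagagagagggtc
C1qc, chr4:136892915-136893164: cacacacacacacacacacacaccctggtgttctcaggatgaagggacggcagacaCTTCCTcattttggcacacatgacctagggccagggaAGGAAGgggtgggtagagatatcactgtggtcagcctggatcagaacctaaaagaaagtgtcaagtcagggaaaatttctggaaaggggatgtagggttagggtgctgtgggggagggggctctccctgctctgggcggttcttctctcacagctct
C3ar1, chr6:122856158-122856407: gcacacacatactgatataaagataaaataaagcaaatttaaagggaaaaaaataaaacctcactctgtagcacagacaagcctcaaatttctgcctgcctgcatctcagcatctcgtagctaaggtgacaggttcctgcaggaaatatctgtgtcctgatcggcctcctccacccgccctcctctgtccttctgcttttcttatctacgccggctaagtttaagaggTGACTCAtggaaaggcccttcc
C5ar1, chr7:16259339-16259588: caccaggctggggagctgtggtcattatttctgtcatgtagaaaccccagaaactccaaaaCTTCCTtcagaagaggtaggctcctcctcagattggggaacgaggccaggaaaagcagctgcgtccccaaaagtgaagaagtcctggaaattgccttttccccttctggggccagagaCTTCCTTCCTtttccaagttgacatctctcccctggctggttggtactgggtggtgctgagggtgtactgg
AGGAAG occurred 1 time upstream of C1qb (52 to 47 bases before the start), 2 times upstream of C1qc (194 to 189 and 157 to 152) and 3 times upstream of C5ar1 (189 to 184, and an overlapping pair at 71 to 66 and 67 to 62), and these letters were absent from the C3ar1 and C3 windows. It was found in 29.5% of all 32851 windows of this length. TGANTCA was present upstream of C3ar1 (22 to 16 bases before the start) and in 6.75% of all windows. A match describes the letters and is not a measured binding site. The windows of C1qc, C3ar1 and C5ar1 overlap the GENCODE gene models given above, since their RefSeq starts lie inside those models. All C5ar1 matches fall within that overlap.

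Cells numbered 8680 after filtering (5272 cortical surface, 3408 bone-associated) out of 17560 barcodes, with 951 to 5602 barcodes and 8408685 to 56169736 unique molecular identifiers (UMIs, each counting 1 captured mRNA) per library. Median UMIs of kept cells were 5452 to 9525 per library, and 124 putative doublets (1.41%) were removed. Cortical surface libraries 3 and 4 stood apart, since hemoglobin mRNAs held 84.6% and 71.9% of their UMIs (17.9% and 11.8% within kept cells) against at most 0.520% elsewhere. Pairs of libraries shared at most 2 barcodes. Cells were clustered without complement genes, and a cluster was given a class name only from at least 3 of that class's markers. All 10 mesenchymal, microglial and border macrophage markers led the clusters of those classes, whereas the pericyte-like clusters were led by 6 to 8 of 8 and the bone-associated monocyte-like clusters by 6 and 11 of 11. The single bone-associated border macrophage-like cluster was also led by 9 of 10 MHC class II macrophage and 6 of 10 microglial markers, against 2 to 3 and at most 1 in the cortical surface border macrophage-like clusters. Leading was judged within a preparation, and no bone-associated cluster was named microglia-like or MHC class II macrophage-like. In addition, a vascular smooth muscle cell (VSMC)-like class was present in cortical surface libraries 1 and 2 alone among those 4, and 715 cells stayed unnamed.

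Levels are given as CPM, the usual counts-per-million scale for the UMIs of a gene among those of all genes, summed over the cells of 1 class in 1 library. UMIs count molecule ends and were not divided by transcript length, so a level is compared between classes for the same gene, not between genes. Differences are log2 fold changes after TMM scaling from edgeR's quasi-likelihood test on the summed counts, with the Benjamini-Hochberg adjusted p over all genes tested. Calls needed an adjusted p under 0.05 together with a log2 change of 1.3 or more in either direction. A gene was tested when over 10% of the cells of either group held a UMI, so a gene high in a single group entered through that group, and counts among tested members are descriptions.

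Between preparations, 4 of 6 tested members were called in mesenchymal-like cells, where 16.0% of all genes tested were called. In border macrophage-like cells 0 of 6 were called by edgeR against 6.41% of all genes, 2 (C4b and C3ar1) had an unadjusted p under 0.05, and DESeq2 also called 0. Pericyte-like cells had 1 of 2 called against 10.7%, and VSMC-like cells 4 of 5 against 6.12%. Between classes within libraries, 2 of 6 tested members were called between border macrophage-like and microglia-like cells (16.8% of all genes), 2 of 3 between mesenchymal-like and pericyte-like cells (15.3%), 3 of 4 between mesenchymal-like and VSMC-like cells (25.4%), 7 of 8 between mesenchymal-like and border macrophage-like cells (35.7%) and 7 of 7 between border macrophage-like and monocyte-like cells (21.9%). Median log2 fold changes of the tested members ran from -7.57 (mesenchymal-like minus border macrophage-like) to 6.36 (border macrophage-like minus monocyte-like). The median of all genes, which TMM scaling holds near 0, lay between -0.04 and 0.06 in every comparison. Members high in a single class entered through that class, so these medians are descriptions and their contrast is no test.

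C1q mRNAs were abundant in microglia-like, border macrophage-like and MHC class II macrophage-like cells and were at most 667 CPM in monocyte-like and dendritic-like cells. C1qa in the 4 cortical surface libraries was 6766, 8711, 8888 and 8943 CPM in microglia-like cells, 5684, 6895, 7493 and 7369 CPM in border macrophage-like cells and 4003, 4329, 5062 and 4763 CPM in MHC class II macrophage-like cells. The 2 bone-associated libraries gave 3999 and 6094 CPM in border macrophage-like cells, which reached into the range of the cortical surface libraries. The order by mean was therefore microglia-like (8327 ± 1045, SD, n = 4 libraries), cortical surface border macrophage-like (6860 ± 825, n = 4), bone-associated border macrophage-like (5046 ± 1481, n = 2) and MHC class II macrophage-like cells (4539 ± 467, n = 4), and the ranges of each pair of neighbours in that order overlapped. C1qb had means of 8034 ± 902, 5449 ± 635, 4603 ± 964 and 4871 ± 287 CPM in the same order of classes, with microglia-like cells above all border macrophage-like libraries. For C1qc the means were 5849 ± 615, 4979 ± 331, 3577 ± 542 and 2757 ± 117 CPM, and no MHC class II macrophage-like library reached the lowest border macrophage-like value of 3193 CPM.

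**Figure D1:**
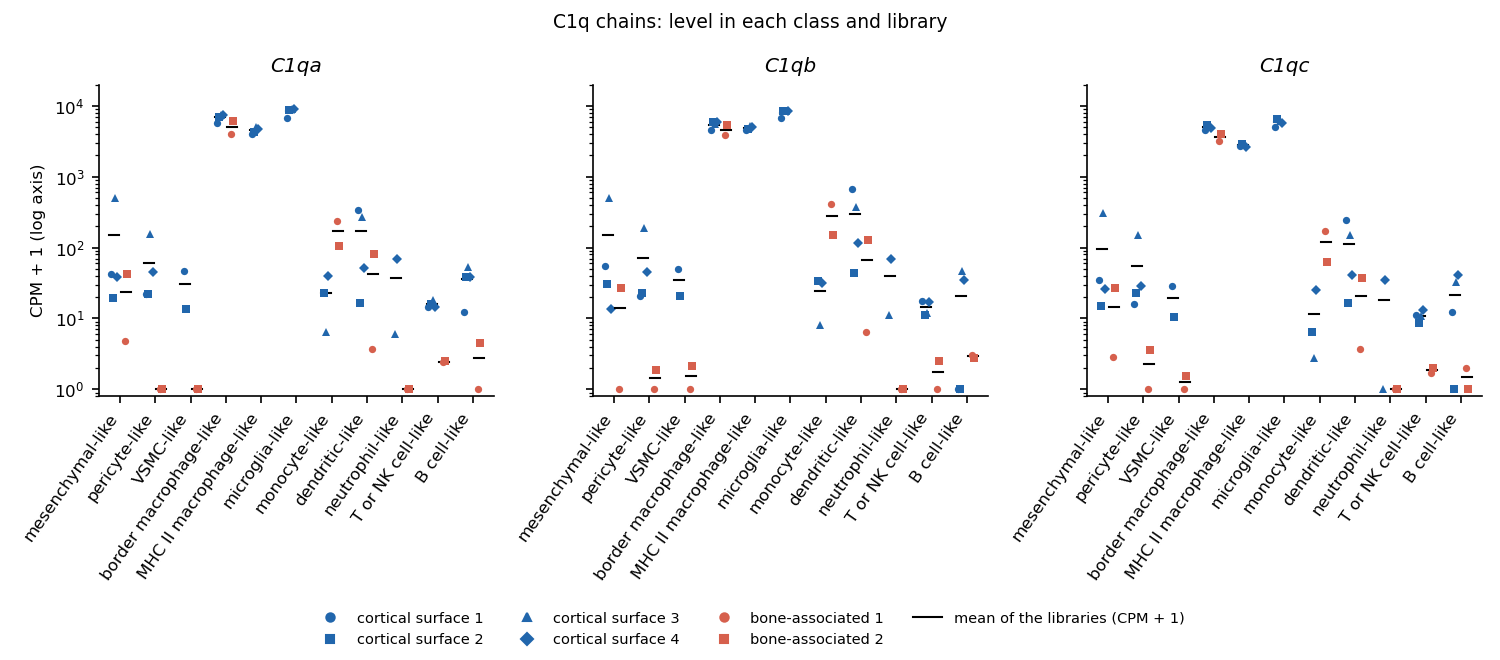
CPM + 1 (log axis) of C1qa, C1qb and C1qc by cell class, with a point per library (cortical surface in blue, bone-associated in red) and a bar at the mean of each preparation. Microglia-like, border macrophage-like and MHC class II macrophage-like cells lie at 2666 to 8943 CPM, and the classes outside the macrophages spread from 0 to 667 CPM.

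Set against microglia-like cells of the same 4 libraries, border macrophage-like cells had lower CPM of each C1q chain in 4 of 4 libraries. After TMM scaling the log2 difference (border macrophage-like minus microglia-like) was -0.07 for C1qa (SE 0.064, edgeR adjusted p = 0.389) and -0.02 for C1qc (SE 0.068, adjusted p = 0.840). C1qb was lower by 0.35 (log2 -0.35, SE 0.065, edgeR adjusted p = 4.62e-05), below the size needed for a call, and its CPM did not overlap between the classes. Between preparations, the border macrophage-like log2 differences (cortical surface minus bone-associated) were 0.31 for C1qa (SE 0.28), 0.11 for C1qb (SE 0.26) and 0.35 for C1qc (SE 0.25), with edgeR adjusted p-values of 0.552, 0.847 and 0.432. The bone-associated side of that comparison rested on 15 and 96 cells of the cluster that also carried MHC class II macrophage and microglial markers, whose part in the differences between preparations (C1q chains, C4b and receptors) was not tested.

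The 3 chains were read together in macrophages. After each cell was thinned to 1500 UMIs, all 3 chains were seen in 99.4% of 700 microglia-like cells, 98.7% of 623 cortical surface and 96.3% of 109 bone-associated border macrophage-like cells, and 93.6% of 312 MHC class II macrophage-like cells. The same was true of 1.79% of cortical surface and 3.05% of bone-associated monocyte-like cells. The chains took unequal parts of the C1q UMIs in different classes. C1qb made up 40.0% ± 0.281 (SD, n = 4 libraries) of C1q UMIs in MHC class II macrophage-like cells, 36.2% ± 0.274 in microglia-like cells and 31.5% ± 1.10 in cortical surface border macrophage-like cells, with no overlap between the classes over the 4 libraries. In bone-associated border macrophage-like cells its share was 35.3% and 34.5%, above the 30.4% to 32.5% of the cortical surface libraries. C1qc ran the other way, with 22.7% ± 1.60 in MHC class II macrophage-like, 26.4% ± 1.17 in microglia-like and 28.9% ± 1.58 in cortical surface border macrophage-like cells, and the last pair overlapped. C1qa held 37.2% to 39.6% of the C1q UMIs by mean in these classes and preparations.

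Monocyte-like cells held far less C1q and differed between preparations. C1qb was 7.14 to 32.2 CPM in the 3 cortical surface libraries with enough cells and 409 and 147 CPM in the bone-associated libraries, and the preparations did not overlap. Border macrophage-like cells exceeded monocyte-like cells by a log2 fold change of 6.87 for C1qa (SE 0.75, edgeR adjusted p = 4.19e-05), 6.36 for C1qb (SE 0.79, adjusted p = 0.000102) and 6.96 for C1qc (SE 0.78, adjusted p = 4.91e-05), each in 5 of 5 libraries. The difference was larger in the cortical surface libraries by 3.32, 3.82 and 3.43 on the log2 scale for C1qa, C1qb and C1qc (class by preparation term, edgeR adjusted p = 0.00301, 0.000686 and 0.00468). In the bone-associated monocyte-like cells the C1q UMIs sat in few cells, 387 UMIs in 6 of 37 cells in library 1 and 475 UMIs in 21 of 129 cells in library 2. The bone-associated cluster that held 119 of these cells was also led by 8 MHC class II macrophage and 3 border macrophage markers, whereas the cortical surface monocyte-like clusters were led by at most 1 marker of any other class, and the part of those markers in the C1q difference was not tested.

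Outside the macrophages, C1q was much lower, and 1 cell held most of it in several libraries. C1qa in cortical surface mesenchymal-like cells was 40.8, 18.6, 492 and 37.8 CPM, and in bone-associated ones 3.78 and 41.7 CPM. Libraries 3 and 4 contributed only 25 and 16 of the 232 cortical surface cells. Library 3 stood above all others, and the preparations overlapped with and without it. The log2 difference (cortical surface minus bone-associated) was called for C1qa (2.05, SE 0.68, edgeR adjusted p = 0.0255), C1qb (2.80, SE 0.70, adjusted p = 0.00204) and C1qc (1.93, SE 0.66, adjusted p = 0.0309). Leaving out cortical surface library 3 ended all 3 calls, with log2 differences of -0.09, 0.95 and 0.20 (edgeR adjusted p = 0.943, 0.172 and 0.869), and DESeq2 made none of them (adjusted p = 0.418, 0.377 and 0.378). The calls of C1qa and C1qc also ended without bone-associated library 1 (adjusted p = 0.0987 and 0.0980), and that of C1qc without cortical surface library 4 (adjusted p = 0.0533). C1qa lost its call as well at Leiden resolution 1.0 and with complement genes allowed in clustering (adjusted p = 0.0569 in both).

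Counting cells instead of libraries shows how uneven these values were. In cortical surface libraries 1 and 2, 24 of 66 and 40 of 125 mesenchymal-like cells held a C1q UMI. In cortical surface library 3 all 194 C1q UMIs of the mesenchymal-like class were in 3 of 25 cells, with 148 in 1 cell, and summed C1q fell from 1306 to 350 CPM without that cell. In bone-associated library 2, 1 cell of 251 held 341 of 351 C1q UMIs, and without it the level fell from 93.2 to 2.69 CPM. That cell carried 53709 UMIs in all and had passed the doublet filter. Among pericyte-like cells, cortical surface library 3 had 140 C1q UMIs in 5 of 61 cells, while library 2 had 59 UMIs spread over 40 of 153 cells. VSMC-like cells of cortical surface library 1 fell from 122 to 49.2 CPM without their top cell, whereas library 2 moved from 41.8 to 39.6 CPM. In these libraries 40 of 101 and 58 of 159 VSMC-like cells held a C1q UMI.

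**Figure D2:**
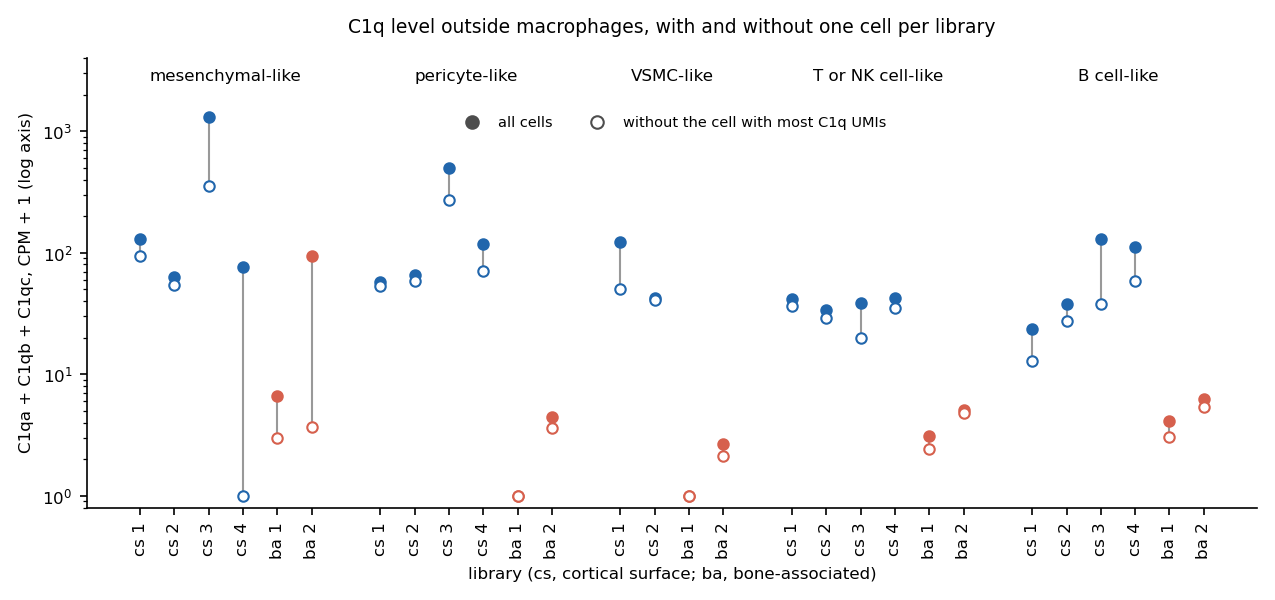
Summed C1q CPM + 1 (log axis) in mesenchymal-like, pericyte-like, VSMC-like, T or NK cell-like and B cell-like cells, with all cells (filled) and without the cell that held the most C1q UMIs (open), a point per library. Bone-associated library 2 drops from 93.2 to 2.69 CPM in mesenchymal-like cells, and the T or NK cell-like and B cell-like cells of the cortical surface libraries lie at 22.4 to 129 CPM.

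In the mural classes C1q also separated the preparations. Endothelial-like cells showed the same split. Their summed C1q was 43.0, 86.3, 180 and 336 CPM in the cortical surface libraries and 0.76 and 1.90 CPM in the bone-associated ones. C1qa, C1qb and C1qc had 111, 121 and 93 UMIs in 500 cortical surface pericyte-like cells and 0, 1 and 3 UMIs in 176 bone-associated ones, too few of the cells for a test. Pooled levels were at least 23.8-fold higher for C1qa (against a floor of 3 counts over the bone-associated group) and higher by ratios of 77.8 for C1qb (95% exact counting interval 13.7 to 3096) and 19.9 for C1qc (6.61 to 98.4). Such intervals and floors cover counting error only. In VSMC-like cells the UMIs were 88, 106 and 57 against 0, 2 and 1, and all 3 chains were called higher in the cortical surface libraries (edgeR adjusted p = 3.64e-05, 1.31e-05 and 0.000178). The pooled levels were at least 31.2-fold higher for C1qa, and the ratios were 56.3 (15.2 to 471) for C1qb and 60.5 (10.4 to 2433) for C1qc. With cells thinned to 1500 UMIs the chains fell below the detection threshold in VSMC-like cells, and no member was called there.

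T or NK cell-like and B cell-like cells, in which C1q is not known to be made, were measured in the same way. Summed C1q in T or NK cell-like cells was 40.4, 32.5, 37.7 and 41.3 CPM in the cortical surface libraries and 2.10 and 4.07 CPM in the bone-associated ones, and in B cell-like cells it was 22.4, 36.8, 129 and 111 CPM against 3.09 and 5.28 CPM. At 1500 UMIs per cell, a C1qb UMI was found in 5.17% of cortical surface mesenchymal-like cells (exact 95% interval 2.70 to 8.86), 4.29% of pericyte-like (2.67 to 6.48), 4.26% of VSMC-like (2.15 to 7.50), 1.68% of T or NK cell-like (0.808 to 3.06) and 2.46% of B cell-like cells (1.13 to 4.62). Unthinned shares were 15.5%, 8.80%, 21.2%, 6.87% and 4.90%, at median depths of 7974, 4527, 12750, 6052 and 3830 UMIs per cell. The 8 myeloid genes used to gauge free RNA, Apoe among them, summed to 17230 to 22380 CPM in cortical surface and 2947 to 3011 CPM in bone-associated mesenchymal-like cells, to 2590 to 3624 against 6102 to 6147 CPM in pericyte-like cells, and to 280.2 and 750 against 31.8 and 51.4 CPM in VSMC-like cells. All 8 were detected in 3 of 4 cortical surface mesenchymal-like sums and 4 in the fourth. The part of free RNA in the C1q values of non-macrophage classes was not tested.

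C4b, cleaved by C1s on the way to C3 activation, had its highest myeloid level in border macrophage-like cells. In the cortical surface libraries it was 283, 360.2, 444 and 424 CPM there, against 3.36, 3.62, 0 and 0 CPM in microglia-like cells and at most 11.3 CPM in MHC class II macrophage-like cells. The classes did not overlap, with 2103 UMIs in 698 border macrophage-like and 5 UMIs in 732 microglia-like cells, and the log2 difference was 8.62 (SE 0.30, edgeR adjusted p = 7.31e-20). Against monocyte-like cells (5 UMIs over 5 libraries) it was 7.58 (SE 0.44, adjusted p = 8.19e-07). A C4b UMI was seen in 59.2% of cortical surface and 44.1% of bone-associated border macrophage-like cells.

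Border macrophage-like cells of the bone-associated libraries held 217 and 130 CPM of C4b, below every cortical surface library. The log2 difference (cortical surface minus bone-associated) of 1.06 (SE 0.29, edgeR adjusted p = 0.0433) passed the p threshold but not the fold threshold. In bone-associated library 1 the C4b UMIs came from 5 of 15 cells. Levels differed the opposite way in mural cells. Pericyte-like cells held 9.11, 12.1, 7.06 and 3.91 CPM in the cortical surface libraries and 271 and 92.6 CPM in the bone-associated ones, which were all higher (log2 difference -4.54, SE 0.43, edgeR adjusted p = 1.98e-06). A single cell held 77 of the 143 UMIs of bone-associated library 1, and without it that library was at 131 CPM, still above the cortical surface libraries. VSMC-like cells followed at a lower level, with 2.94 and 1.47 against 8.36 and 19.3 CPM (log2 difference -2.81, SE 0.60, edgeR adjusted p = 0.00338).

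Within the bone-associated pericyte-like class, C4b lay in the cluster led by Ccl19, a chemokine that attracts lymphocytes and dendritic cells. That cluster held 319 and 130 CPM, and the other cluster 0 and 2.94 CPM. In the cortical surface libraries the Ccl19-led pericyte-like cluster held 2.51 to 12.99 CPM and the other cluster 4.97 to 10.79 CPM, which overlapped. These clusters were set apart after their values were seen, so no test was run. Without the Ccl19-led clusters of both preparations, C4b no longer reached the detection threshold in pericyte-like cells. Mesenchymal-like cells held 102, 61.6, 40.4 and 75.6 CPM in the cortical surface and 49.2 and 25.7 CPM in the bone-associated libraries, which overlapped (log2 difference 1.10, SE 0.36, edgeR adjusted p = 0.0225, under the fold threshold). Without bone-associated library 1 this difference became a call (1.44, adjusted p = 0.00859). Schwann-like cells, present in the bone-associated libraries only, held 388 and 315 CPM.

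The order of mesenchymal-like and pericyte-like cells in C4b turned with the preparation. Mesenchymal-like cells were higher in 4 of 4 cortical surface libraries and lower in 2 of 2 bone-associated libraries, and the log2 difference between the classes differed by 5.30 between preparations (SE 0.42, edgeR adjusted p = 1.25e-13). Over all 6 libraries the classes differed by 0.59 (SE 0.95, adjusted p = 0.722). In the bone-associated libraries the pericyte-like cluster not led by Ccl19 (0 and 2.94 CPM) lay below mesenchymal-like cells (25.7 and 49.2 CPM). Without the Ccl19-led clusters the log2 difference was 3.40 in favour of mesenchymal-like cells. These clusters were left out after their C4b values were seen, so this size is a description and no p-value is given. Mesenchymal-like cells exceeded VSMC-like cells by 2.63 (SE 0.83, adjusted p = 0.0436) in 4 of 4 libraries, a call that ended without cortical surface library 1 (adjusted p = 0.123), cortical surface library 2 (0.114) or bone-associated library 1 (0.104). They were below border macrophage-like cells by 2.66 (log2 -2.66, SE 0.25, edgeR adjusted p = 1.89e-06).

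**Figure D3:**
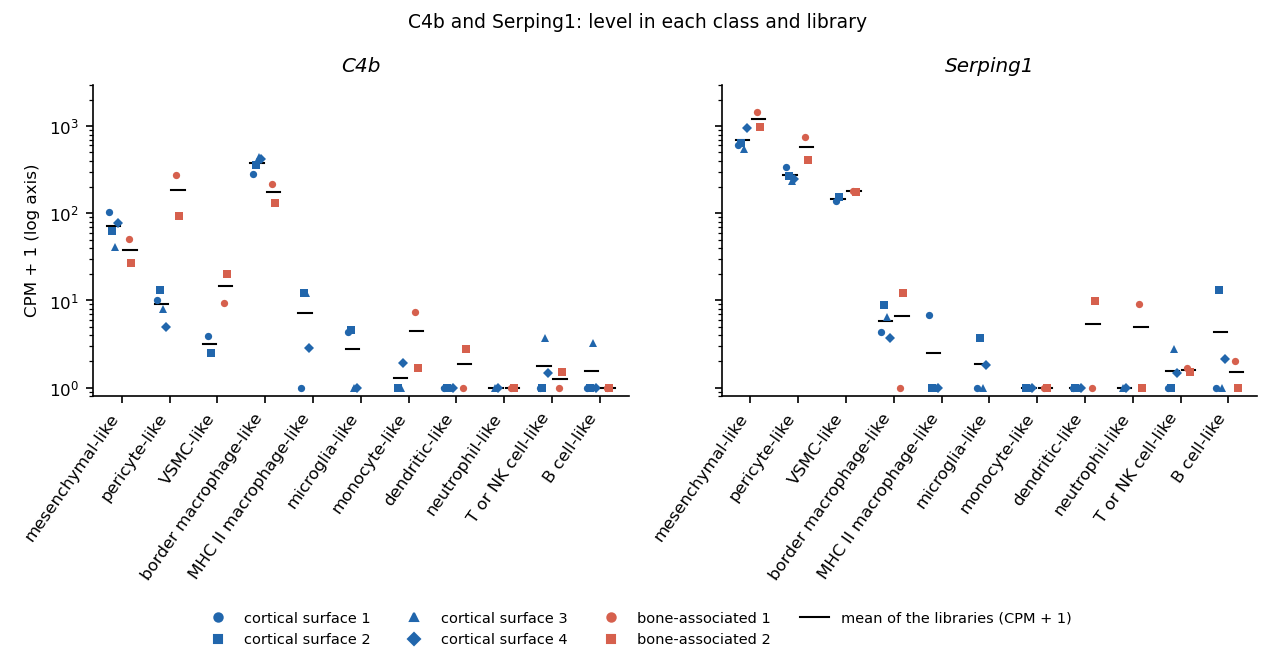
CPM + 1 (log axis) of C4b and Serping1 by cell class, with a point per library (cortical surface in blue, bone-associated in red) and a bar at the mean of each preparation. C4b in pericyte-like cells splits into 3.91 to 12.1 CPM in the cortical surface and 92.6 to 271 CPM in the bone-associated libraries, and Serping1 means are at most 5.60 CPM in every myeloid class.

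Serping1, the inhibitor of C1r and C1s, was a gene of fibroblast and mural cells. It was 600.4, 645.5, 552 and 945 CPM in cortical surface and 1438 and 965 CPM in bone-associated mesenchymal-like cells. Pericyte-like cells held 340.2, 264, 237 and 246 CPM against 751 and 413 CPM, and VSMC-like cells 137 and 153 against 179.9 and 174 CPM. In each of these 3 classes the bone-associated libraries lay above the cortical surface libraries. The log2 differences (cortical surface minus bone-associated) were -0.81 in mesenchymal-like (SE 0.29, edgeR adjusted p = 0.0426), -1.26 in pericyte-like (SE 0.22, adjusted p = 0.000718) and -0.40 in VSMC-like cells (SE 0.23, adjusted p = 0.393). All 3 were under the fold threshold. In pericyte-like cells the difference passed it without cortical surface library 1 (-1.35) or bone-associated library 2 (-1.54). The summed mesenchymal markers moved with it, at 7396 and 4406 CPM in bone-associated and 1066 to 1587 CPM in cortical surface pericyte-like cells, and their part in the Serping1 and C4b values was not tested.

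By mean of the named classes the order was mesenchymal-like, pericyte-like, then VSMC-like in both preparations. Pericyte-like against VSMC-like cells was not fitted. Unnamed bone-associated clusters led by markers of both mural classes held means of 326.1 to 365.5 CPM, above the VSMC-like 177.2 CPM. Such cortical surface clusters held 341.7 and 359.3 CPM, against 145 CPM. The cortical surface pericyte-like cluster not led by Ccl19 (108 to 204 CPM) overlapped VSMC-like cells (137 and 153 CPM). Mesenchymal-like cells exceeded pericyte-like cells in 6 of 6 libraries (log2 difference 1.31, SE 0.18, edgeR adjusted p = 0.000455) and VSMC-like cells in 4 of 4 (2.20, SE 0.20, adjusted p = 0.000398). The first of these sat at the fold threshold and was called in 7 of 20 alternative settings, in which its size ran from 1.11 to 2.28. Against border macrophage-like cells the difference was 6.76 (SE 0.40, edgeR adjusted p = 4.47e-08). Microglia-like cells had 5 UMIs in 732 cells, and monocyte-like cells 0 UMIs in the 5 libraries compared. Serping1 was detected in 94.0% and 96.8% of cortical surface and bone-associated mesenchymal-like cells, 58.0% and 86.4% of pericyte-like cells and 77.3% and 82.4% of VSMC-like cells. At 1500 UMIs per cell the shares were 54.3% and 69.2%, 28.4% and 49.1%, and 17.1% and 21.5%, which follow the order of the levels in both preparations.

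Serping1 also varied between clusters of these classes, given here as descriptions. The Ccl19-led pericyte-like cluster of the cortical surface held 346 to 400.3 CPM of Serping1 and the other cluster 108 to 204 CPM. In the bone-associated libraries the corresponding values were 831 and 453 CPM against 304 and 317 CPM. Among bone-associated mesenchymal-like cells the cluster led by Apod, Inmt and Igfbp6 held 1821 and 1706 CPM, and the cluster led by the cartilage matrix genes Comp and Chad 1135 and 755 CPM. Another cluster of that class (55 cells) was led by Gjb6, which the study lists as a leptomeningeal marker. It had enough cells for a sum in library 2 only. Its Serping1 level was 517 CPM, below the 552 to 945 CPM of the cortical surface mesenchymal-like libraries.

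C3 and Cfb, the central component and the protease of the alternative pathway, were read in other cells than C1q. C3 was highest in neutrophil-like cells (311 and 369.8 CPM in cortical surface libraries 3 and 4, 136 and 259 CPM in the bone-associated ones) and in monocyte-like cells (80.6, 155 and 239 CPM in cortical surface libraries 2 to 4, 266 and 199 CPM in the bone-associated ones). The neutrophil-like libraries lay above the monocyte-like ones in the cortical surface preparation, and the classes overlapped in the bone-associated one. Microglia-like cells had 0 C3 UMIs in 732 cells, which allows a share of cells with a UMI of up to 0.410%. Border macrophage-like cells held 0.84 to 5.39 CPM in the cortical surface and 57.9 and 4.80 CPM in the bone-associated libraries, and 11 of the 12 UMIs behind the high value lay in 1 cell. Monocyte-like cells exceeded border macrophage-like cells in 5 of 5 libraries, with 796 against 28 UMIs (log2 difference, border macrophage-like minus monocyte-like, -4.54, SE 0.46, edgeR adjusted p = 2.75e-05).

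Among fibroblasts, C3 and Cfb were found in the bone-associated preparation. C3 was at 0, 0, 0 and 12.6 CPM (1 UMI) in cortical surface and 30.2 and 21.2 CPM in bone-associated mesenchymal-like cells, a pooled ratio of 45.8 (95% exact counting interval 8.03 to 1828), and it was detected in too few cells for a test. A single cell held 11 of the 16 UMIs of bone-associated library 1, which fell to 9.60 CPM without it, below the value of cortical surface library 4. Cfb had 0 UMIs in 232 cortical surface mesenchymal-like cells, which allows a share of cells with a UMI of up to 1.29% (3 counts of the total), and 139 UMIs in 282 bone-associated ones, at 64.3 and 27.9 CPM. It was called (edgeR adjusted p = 3.14e-08) and was at least 22.1-fold higher in the bone-associated cells against a floor of 3 counts over the cortical surface group. The clusters differed, with C3 at 96.8 and 60.5 CPM in the Apod-led cluster against 0 and 8.31 CPM in the Comp-led cluster, while Cfb was 54.4 and 52.0 against 64.5 and 25.5 CPM. The Gjb6-led cluster, summed in bone-associated library 2 only, held 1.10 CPM of C3 and 4.42 CPM of Cfb.

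Mural cells held almost none of either gene. Pericyte-like cells had 2 UMIs of C3 and 3 of Cfb, and VSMC-like cells 0 of both. Cfb was called higher in mesenchymal-like than in pericyte-like cells (edgeR adjusted p = 0.0287, ratio 31.4 with a counting interval of 10.5 to 154) although it was higher in 2 of 6 libraries only, both bone-associated. The classes differed in Cfb by an amount that itself differed between preparations (class by preparation term -8.46 on the log2 scale, SE 2.58, edgeR adjusted p = 0.0211, a fitted size that is no bound because 1 group is at 0). Cfb fell below the detection threshold of that comparison when either bone-associated library was left out, and DESeq2 did not call it (adjusted p = 0.680). It was also called above VSMC-like cells (edgeR adjusted p = 0.00587, at least 53.0-fold over all 4 libraries pooled), though higher in 2 of 4 libraries only, both bone-associated, and DESeq2 gave an adjusted p of 0.258. Cfb in monocyte-like cells was 5.37, 0 and 3.58 CPM in the cortical surface and 27.4 and 11.9 CPM in the bone-associated libraries. The difference between mesenchymal-like and border macrophage-like cells was 1.17 (SE 0.74, edgeR adjusted p = 0.216), and became a call without cortical surface library 2 (1.90, adjusted p = 0.0311).

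**Figure D4:**
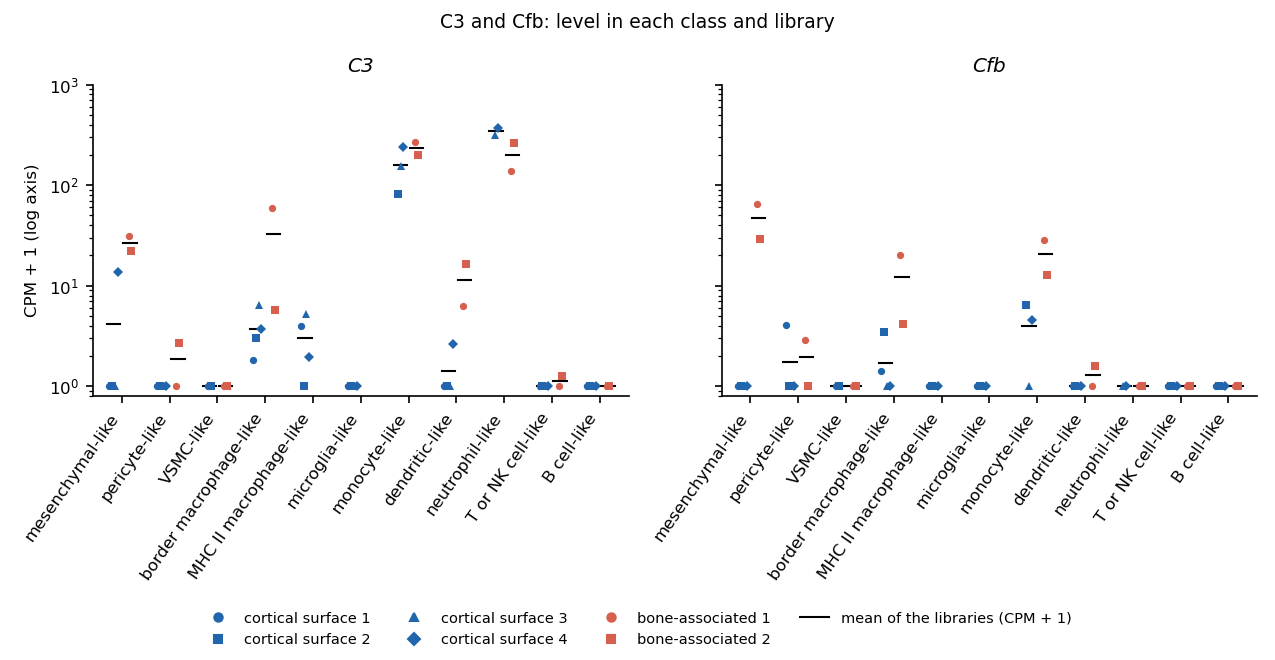
CPM + 1 (log axis) of C3 and Cfb by cell class, with a point per library (cortical surface in blue, bone-associated in red) and a bar at the mean of each preparation. C3 is highest in monocyte-like and neutrophil-like cells at 80.6 to 369.8 CPM, and Cfb in mesenchymal-like cells is at 0 in all 4 cortical surface libraries and at 27.9 and 64.3 CPM in the bone-associated ones.

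The receptors were expressed in myeloid cells, C3ar1 in the macrophage classes and C5ar1 in neutrophil-like cells as well. C3ar1 was 387, 363, 230.0 and 259.6 CPM in cortical surface border macrophage-like cells, 202, 196.5, 176 and 188 CPM in microglia-like cells and 273, 402, 224 and 255 CPM in MHC class II macrophage-like cells. Border macrophage-like cells exceeded microglia-like cells in each library (log2 difference 0.88, SE 0.12, edgeR adjusted p = 2.58e-07), under the fold threshold, and their range overlapped that of the MHC class II macrophage-like cells. The cluster of low UMI count (212 of the 698 border macrophage-like cells) held 87.7 to 119 CPM, below the microglia-like libraries, and the other 2 clusters 277 to 403 CPM. The bone-associated border macrophage-like cells held 574 and 464 CPM, above all cortical surface libraries, with a log2 difference of -0.85 (SE 0.24, edgeR adjusted p = 0.0525) that missed the threshold.

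C5ar1 separated border macrophage-like from microglia-like cells. It was 483, 505, 257 and 201 CPM in the former and 77.3, 106, 65.7 and 65.0 CPM in the latter, with no overlap (log2 difference 2.28, SE 0.14, edgeR adjusted p = 2.09e-14). MHC class II macrophage-like cells held 138, 224, 71.8 and 46.9 CPM, which overlapped both. In border macrophage-like cells the bone-associated libraries (323 and 533 CPM) overlapped the cortical surface libraries (log2 difference -0.40, SE 0.37, edgeR adjusted p = 0.566). Libraries 3 and 4, which held the hemoglobin mRNAs, were the lower pair in all 3 macrophage classes of the cortical surface. Border macrophage-like cells of libraries 1 and 2 came mostly from a cluster led by Ccl7 and Ccl2 that libraries 3 and 4 did not contribute to in numbers sufficient for a sum, and its part in the C5ar1 values was not tested. Neutrophil-like cells held 209 and 185 CPM in cortical surface libraries 3 and 4 and 987 and 688 CPM in the bone-associated ones, which lay above the former, and this was not tested. Both neutrophil-like clusters had S100a8, S100a9 and Retnlg among their top leading genes. Camp, Ngp and Ltf were among them in the cortical surface cluster only, and Stfa2l1, Slfn4 and Il1f9 in the bone-associated one only. The clusters are therefore not matched, and the part of this in the C5ar1 values was not tested.

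Monocyte-like cells were below border macrophage-like cells for both receptors in 5 of 5 libraries. C3ar1 was 0, 1.78 and 5.38 CPM in their cortical surface libraries and 50.6 and 23.8 CPM in the bone-associated ones, and C5ar1 43.0, 10.7 and 8.96 CPM against 82.3 and 80.6 CPM. The log2 difference (border macrophage-like minus monocyte-like) was 4.70 for C3ar1 (SE 0.39, edgeR adjusted p = 7.31e-06) and 3.28 for C5ar1 (SE 0.35, adjusted p = 3.30e-05). For C5ar1 it was larger in the cortical surface libraries by 1.84 (SE 0.38, adjusted p = 0.0147). Fibroblast and mural cells had means of at most 3.93 CPM of either receptor, and mesenchymal-like cells lay below border macrophage-like cells by log2 -8.20 for C3ar1 (SE 0.40, edgeR adjusted p = 2.13e-08) and -7.73 for C5ar1 (SE 0.49, adjusted p = 7.39e-08).

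**Figure D5:**
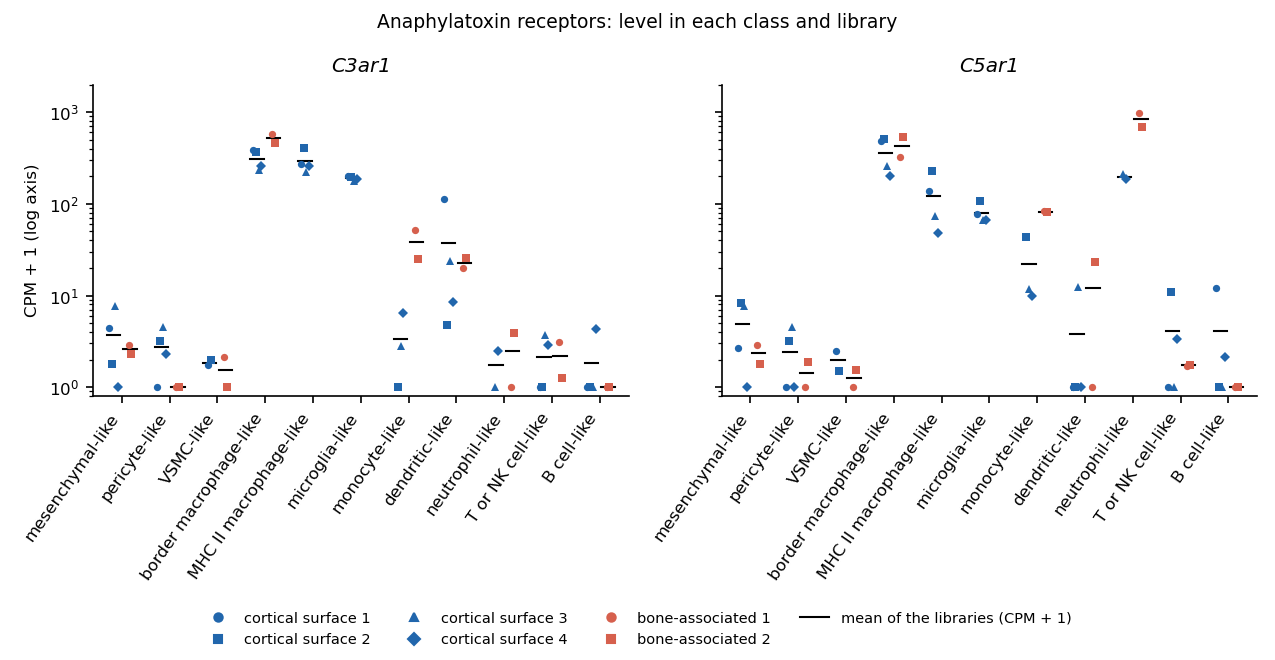
CPM + 1 (log axis) of C3ar1 and C5ar1 by cell class, with a point per library (cortical surface in blue, bone-associated in red) and a bar at the mean of each preparation. C5ar1 in border macrophage-like cells (201 to 533 CPM) lies above microglia-like cells (65.0 to 106 CPM), and the bone-associated neutrophil-like cells hold the highest C5ar1 values, 688 and 987 CPM.

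The 9 genes were part of a list of 54 complement genes grouped by role, of which 53 were in the tables. Median log2 differences of the tested genes of this list ran from -2.07 (mesenchymal-like minus border macrophage-like) to 3.64 (border macrophage-like minus monocyte-like). These medians are descriptions as well. Between the mesenchymal-like cells of the 2 preparations 17 of the list were tested. Of these, 6 were called higher in the cortical surface and 5 in the bone-associated libraries, against 6.14% and 9.91% of all genes. The 6 include the 3 C1q chains, whose calls ended without cortical surface library 3, with the replicate block and with DESeq2. In the classical pathway the proteases C1ra and C1s1 were higher in the bone-associated cells, C1ra at 212 ± 45.2 against 12.1 ± 8.63 CPM (SD, n = 2 and 4 libraries, log2 difference -3.73, SE 0.36, edgeR adjusted p = 5.71e-11) and C1s1 with 433 against 3 UMIs (ratio 68.9, counting interval 23.4 to 335). Vitronectin (Vtn), a matrix protein that blocks the terminal complex, was at 7040 ± 1767 CPM in the cortical surface and 222 ± 71.4 CPM in the bone-associated libraries (log2 difference 5.02, SE 0.46, edgeR adjusted p = 1.19e-11). Clusterin (Clu), another soluble inhibitor of that complex, ran the other way at 4.13 ± 4.92 against 66.5 ± 8.46 CPM (-3.15, SE 0.44, edgeR adjusted p = 1.99e-07). Cd55, which speeds the decay of the C3-cleaving enzymes, was 35.7 ± 14.5 against 4.56 ± 1.57 CPM, the collectin Colec12 670.4 ± 169 against 234 ± 112 CPM, and Csmd1, a membrane regulator, was at 0 UMIs in the cortical surface and at least 12.4-fold higher in the bone-associated cells.

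Fewer of the listed genes were called in the other classes between preparations. Border macrophage-like cells had 19 tested, 2 higher in the cortical surface (Colec12 and Vtn) and 1 higher in the bone-associated libraries (Cd93, a receptor on phagocytes and endothelium, 218 ± 33.5 against 90.4 ± 15.5 CPM), against 1.43% and 4.98% of all genes. Pericyte-like cells had 12 tested, with Colec12 higher in the cortical surface and C4b, C1ra, C2, Csmd1 and Cd93 higher in the bone-associated libraries, against 2.45% and 8.20%. For C1ra the values there were 56.0 ± 16.8 and 170.5 ± 64.9 CPM, and for C2, the partner of C4b in the C3-cleaving enzyme, 15.2 ± 6.45 and 44.2 ± 23.4 CPM. VSMC-like cells had 14 tested, 5 higher in the cortical surface (the C1q chains and Vtn among them) and 2 lower (C4b and Clu), against 2.04% and 4.08%. Vtn was 26.4 against 2.81 CPM in border macrophage-like and 55.9 against 0.55 CPM in VSMC-like cells. The mesenchymal-like cells of the same preparations held 7040 and 222 CPM, and the part of free RNA in these Vtn values was not tested.

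Border macrophage-like and microglia-like cells differed in many listed genes besides C4b and C5ar1. Of 18 tested, 9 were higher in border macrophage-like and 2 in microglia-like cells, against 8.74% and 8.05% of all genes. The ficolin Fcna, a lectin pathway sensor, was 125 ± 48.2 against 0.23 ± 0.45 CPM, properdin (Cfp), which stabilises the alternative pathway enzyme, 184 ± 34.0 against 0.82 ± 0.56 CPM (log2 difference 7.56, SE 0.27, edgeR adjusted p = 1.20e-19), C2 70.4 ± 28.3 against 0.21 ± 0.42 CPM and Colec12 186 ± 35.1 against 1.75 ± 2.02 CPM. The chains of complement receptor 3, Itgam and Itgb2, were lower in border macrophage-like cells, Itgam at 117 ± 15.9 against 685 ± 103 CPM (log2 difference -2.33, SE 0.11, edgeR adjusted p = 6.70e-17). Cd93 had 593 UMIs in border macrophage-like and 0 in microglia-like cells. Against monocyte-like cells, 14 of 20 tested were higher in border macrophage-like cells and 3 lower (12.7% and 9.18% of all genes). The 3 were C3, Itgb2 and Itgax, the last with 1 UMI in border macrophage-like and 163 in monocyte-like cells.

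Fibroblasts differed from mural cells and from border macrophage-like cells in further listed genes. Mesenchymal-like against pericyte-like cells gave 13 tested, 4 higher in the former (Cfb, Serping1, Colec12 and Cd59a, an inhibitor of the terminal complex) and 2 in the latter (C1s1 and the collectin Colec11, 123 ± 36.4 against 2.64 ± 2.62 CPM), against 8.23% and 7.09% of all genes. Mesenchymal-like against VSMC-like cells gave 15 tested, 7 higher and 2 lower (14.8% and 10.6%), with Cd59a among the lower ones at 23.9 ± 5.84 against 94.3 ± 31.0 CPM. Mesenchymal-like against border macrophage-like cells gave 24 tested, 6 higher and 12 lower (18.7% and 17.0%), and all 6 tested receptors were among the lower ones. None of the 7 terminal pathway genes reached the detection threshold in any of the 9 comparisons.

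Genes most like each member were ranked by Pearson's r of log CPM over 72 sums of a class in a library, among 14509 genes. The sums share libraries, so r is a description. Each C1q chain had the other 2 chains as its nearest genes (r = 0.972 to 0.976), followed by Trem2, a microglial lipid receptor (0.905 to 0.926). C3 was nearest to Chil3 (0.865) and Trem3 (0.849), C3ar1 to the nucleotide receptor P2ry6 (0.894) and the Fc receptor Fcgr1 (0.884), and C5ar1 to Hk3 (0.883) and C5ar2, the other C5a receptor (0.870). Serping1 was nearest to Gpr153 (0.938) and Fam26e (0.934). C4b and Cfb had no gene as near, with Aspa at 0.788 for C4b and Dio2 at 0.709 for Cfb.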

How the data were processed

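Raw UMI counts per gene and cell, which the authors deposited as unnormalised 10x matrices, were read for 6 libraries (10x 3′ chemistry, viable sorted cells). The file header names Cell Ranger 6.1.2, the labels Cell Ranger 3 and mm10. Barcodes needed 500 or more genes and no more than 10% mitochondrial UMIs, simulated-doublet scores were used to remove doublets, and each preparation was clustered without complement genes (2000 variable genes, 30 principal components, 15 neighbours, Leiden resolution 1.5, leidenalg 0.10.2, Python 3.11.15). A cluster was named "X-like" when at least 3 markers of that class, each in at least 20% of its cells and at least 2-fold above the rest, led it. The clusters were rebuilt here and are not those of the authors, whose cell annotation was not used here.

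Counts were summed per library and class (at least 10 cells) and tested with edgeR 4.0.16 (TMM, quasi-likelihood F-test, R 4.3.3, limma 3.58.1), with the library as a block between classes. The detection threshold for testing a gene was a UMI in more than 10% of cells in 1 or both groups. The SE is the log2 fold change divided by the square root of F. Depth limits precision to 79385 UMIs in the smallest mesenchymal-like sum. Named genes were the 9 members, the called genes of a 54-gene complement list and the 3 genes most like each member. The values of 1 called gene of the list are not reported here. Members and lists were chosen with earlier results of these data known. Alternatives were DESeq2 1.42.0, other scalings, filters, resolutions, thinning, leaving out each library and the replicate block. Those chosen after seeing the data were leaving out cortical surface libraries 3 and 4 or the Ccl19-led, Ccl7-led, low-UMI or Gjb6-led clusters, and the class by preparation term. The statistics were tested on simulated data.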

Additional observations from a re-analysis of the deposited data

Results flagged for a closer look

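Within groups of 4 cortical surface libraries, 13 of 46 sets of values held 1 library whose gap to its nearest neighbour exceeded the 95% limit of Dixon's test, and chance alone gives about 1 in 20. In 5 of the 13 sets the other 3 libraries were at 0, so that a single UMI sets the result and this rate does not apply. The sets are also not independent, because the C1q chains varied together in the same cells, so the count cannot be judged against that rate. Cortical surface library 3 was high for the C1q chains in mesenchymal-like cells, at 491.6 CPM for C1qa (others 18.6 to 40.8), 505 CPM for C1qb (others 12.6 to 54.4) and 309.8 CPM for C1qc (others 13.8 to 34.0). The same library was high in pericyte-like cells, at 190.7 CPM for C1qb (others 19.7 to 44.3) and 148.4 CPM for C1qc (others 15.2 to 27.4). Library 1 was low in microglia-like cells, at 6766 CPM for C1qa (others 8711 to 8943) and 6686 CPM for C1qb (others 8379 to 8571). The remaining values rested on 1 to 6 UMIs. They were C3 in dendritic-like cells of library 4 (1.647 CPM) and in mesenchymal-like cells of library 4 (12.6 CPM), C5ar1 in dendritic-like cells of library 3 (11.25 CPM), Cfb in border macrophage-like cells of library 2 (2.473 CPM) and in pericyte-like cells of library 1 (3.037 CPM), and Serping1 in MHC class II macrophage-like cells of library 1 (5.879 CPM).

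The difference between 2 classes itself differed between preparations in 11 of 22 tests of the class by preparation term (edgeR, adjusted over all genes tested, values on the log2 scale as cortical surface minus bone-associated). Of all genes, 1146 of 9152 passed for mesenchymal-like against pericyte-like cells and 1401 of 9575 against VSMC-like cells. The numbers were 935 of 9645 against border macrophage-like cells and 229 of 7643 for border macrophage-like against monocyte-like cells. For Cfb in mesenchymal-like against VSMC-like cells the fit gave no SE. Between mesenchymal-like and pericyte-like cells the term was 5.30 for C4b (adjusted p = 1.25e-13) and -8.46 for Cfb (0.0211). Between mesenchymal-like and VSMC-like cells it was -3.90 for C1qb (0.000584) and 4.18 for C4b (3.57e-05). Between mesenchymal-like and border macrophage-like cells it was 2.39 for C1qb (0.0152), -6.17 for Cfb (0.0190) and 2.57 for C5ar1 (0.0434). Between border macrophage-like and monocyte-like cells it was 3.32 for C1qa (0.00301), 3.82 for C1qb (0.000686), 3.43 for C1qc (0.00468) and 1.84 for C5ar1 (0.0147). Cfb had 0 UMIs in the cortical surface mesenchymal-like cells, so the size of its fitted terms is no bound. The C5ar1 term against border macrophage-like cells rests on 11 UMIs in cortical surface and 4 in bone-associated mesenchymal-like cells. For the C1qb terms, 1 mesenchymal-like cell held 341 of the 351 C1q UMIs of bone-associated library 2.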

How the results depend on the processing

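Of 821 recomputed fold changes of members, 771 kept their side of the threshold, 35 lost the call, 12 gained it and 3 called ones reversed. Settings in which a member fell below the detection threshold or had no adjusted p are not among the 821. Calls that ended in that way are therefore not in the 35. The 771 include changes of sign where neither fit made a call. An example is C5ar1 between preparations in border macrophage-like cells, which ran from -0.81 to 0.20. The cause was not tested unless named.

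Members called between preparations in mesenchymal-like cells (4) were 1 with DESeq2, after thinning to 1500 UMIs, with the replicate block and without cortical surface libraries 3 and 4, 2 without the Gjb6-led cluster, and 1 to 5 when leaving out 1 library. After thinning the 1 called was C4b (log2 1.72, edgeR adjusted p = 0.0151). The 4 called in the main fit, the C1q chains and Cfb, fell below the detection threshold after thinning and were not tested. Cfb kept its call in all 18 alternatives in which it was tested. C1qa there (2.05) ran from -0.086 to 5.01 when leaving out 1 library, the lowest without cortical surface library 3, and reversed to -0.20 with the replicate block and to -0.11 without libraries 3 and 4. The count in border macrophage-like cells (0) was 1 for genes with at least 1 UMI, after thinning, without the Ccl7-led and low-UMI clusters, and 0 to 1 leaving out 1 library (1 without bone-associated library 2). The count in pericyte-like cells (1) was 4 for genes with at least 1 UMI, 2 at 5% mitochondrial UMIs and after thinning, 3 without libraries 3 and 4, 0 without the Ccl19-led clusters, and 1 to 2 leaving out 1 library. The count in VSMC-like cells (4) was 0 after thinning, when 1 member reached the detection threshold.

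Between classes, border macrophage-like against microglia-like cells (2) gave 4 for genes with at least 1 UMI. Mesenchymal-like against pericyte-like cells (2) gave 0 with DESeq2 and without libraries 3 and 4, 1 with DESeq2 size factors, hemoglobin genes left out, at least 1000 genes, 5% mitochondrial UMIs, thinning, resolution 1.0, complement genes allowed in clustering and no replicate block, and 1 to 2 leaving out 1 library. Mesenchymal-like against VSMC-like cells (3) gave 1 after thinning.

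The labels do not pair the replicate numbers of the preparations. Deviations of same-numbered libraries correlated at 0.02 and 0.16 in mesenchymal-like, 0.18 and 0.02 in border macrophage-like, 0.15 and 0.15 in pericyte-like and 0.36 and 0.36 in VSMC-like cells. With 2 bone-associated libraries the deviations mirror each other, so these correlations cannot decide whether libraries were paired. The replicate block left the other counts between preparations at 0, 1 and 4.

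Thinning lowered the number of all genes called to 622, 139, 302 and 194 between preparations (mesenchymal-like, border macrophage-like, pericyte-like, VSMC-like; 1537, 490, 851 and 510 unthinned) and to 640, 686, 1011, 1307 and 729 between classes. Genes with at least 1 UMI gave 868 in border macrophage-like cells and 2061 against microglia-like cells, leaving out bone-associated library 2 gave 269 in border macrophage-like cells, and leaving out the Ccl19-led clusters gave 366 in pericyte-like cells. Upper-quartile scaling put 166 of 493 border macrophage-like calls on the cortical surface side, TMM 109 of 490. At most 5% mitochondrial UMIs was not run for the VSMC-like comparisons. Depth limits C3, Cfb and non-macrophage C1q, which rest on few UMIs or cells.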

Other observations

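The members also varied between clusters inside the myeloid classes, described here without a test because the clusters were chosen after their values were seen. Border macrophage-like cells of cortical surface libraries 1 and 2 came mostly from a cluster led by the chemokines Ccl7 and Ccl2 (139 of 190 and 167 of 211 cells), and those of libraries 3 and 4 from a cluster led by Lyve1, Stab1 and Cd163 and a cluster of low UMI count (median 1888). C5ar1 was 521 and 539 CPM in the Ccl7-led cluster and 265 to 375 CPM in the Lyve1-led one, while C4b was 245 and 327 CPM against 409 to 642 CPM. The cluster of low UMI count held 81.6 to 263 CPM of C5ar1 and 127 to 454 CPM of C4b. Within library 1, C4b was 524 CPM in the Lyve1-led and 245 CPM in the Ccl7-led cluster, and within library 2 it was 642 and 327 CPM.

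Monocyte-like cells split by C3. The clusters led by Plac8, Ms4a8a and F10 held 217 and 274 CPM of C3 in cortical surface libraries 3 and 4 and 340 and 223 CPM in the bone-associated libraries. Other leading genes of these clusters differed, with Pclaf, Prtn3, Top2a and Hist1h1b in the cortical surface and Chil3, Lyz2 and Ly6c2 in the bone-associated cluster. They are therefore not matched between preparations, and the part of this in the values was not tested. The clusters led by Cd300e, Treml4, Ace and Ear2, genes of patrolling monocytes, held 52.3 and 97.1 CPM and 42.5 and 71.3 CPM. C5ar1 ran the other way in each of these 4 libraries, with 2.86, 5.56, 73.0 and 72.9 CPM in the Plac8-led and 23.8, 23.1, 110 and 122 CPM in the Cd300e-led clusters.

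Endothelial-like cells held at most 13.6 CPM of C4b, 7.97 CPM of Serping1 and 7.62 CPM of Cfb in any library. In Schwann-like cells Serping1 was 111 and 33.0 CPM, from 10 and 9 UMIs.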
